A study of Mus musculus with 9 samples.

Results

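The iron handling genes described here are 10 genes that hepatocytes use to take up, store, release and sense iron: *Hamp*, *Tfrc*, *Tfr2*, *Fth1*, *Ftl1*, *Cp*, *Ireb2*, *Aco1*, *Hfe* and *Steap4*. They were chosen by symbol and found through the GENCODE M1 identifiers, where *Tfr2* has the older symbol *Trfr2*. A total of 13643 genes were listed in at least 1 of the 2 tables. Of the 10 genes, 9 were listed in both tables and *Steap4* in the table of shRNA 1 alone, and 8 reached a mean of 10 normalized counts in each.

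The RNA came from AML12 cells, a line of mouse hepatocytes, and libraries were enriched for polyA RNA. Cells were given a control shRNA or were infected for 5 d with lentivirus holding Srrm2 shRNA 1 or Srrm2 shRNA 2, with 3 libraries in each of the 3 groups. *Srrm2* encodes a scaffold protein of nuclear speckles, bodies rich in factors of RNA processing. All cells grew with 10% fetal bovine serum, 0.1 µM dexamethasone and an ITS supplement, which supplies insulin, transferrin and selenium, so the medium of every group held an iron carrier.

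Iron enters a hepatocyte mostly bound to transferrin, is kept in ferritin, a shell of heavy and light chains, and leaves through ferroportin. Hepcidin, the hormone made from *Hamp*, is secreted by the liver and removes ferroportin from cell surfaces, and its gene responds to iron through BMP signals and to inflammation through IL-6 and STAT3. Inside the cell the iron regulatory proteins, made from *Aco1* and *Ireb2*, bind a hairpin in mRNA called the iron-responsive element when iron is scarce. A hairpin before the coding sequence then blocks translation, while hairpins after it protect the mRNA from decay.

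The letters of that hairpin were found in 3 of the 10 genes by the rule given next, and the stretches that fit it are printed. The search took a C, any 5 bases, the loop CAGTGN and 5 bases that pair with those before the loop, on the sense strand of annotated untranslated regions. The C and the first 5 bases of the loop are in capitals. *Fth1* and *Ftl1*, for the heavy and light chain of ferritin, hold 1 match each before the coding sequence, at chr19:10057222-10057250 on the + strand and chr7:52715149-52715177 on the - strand of mm9.
Fth1: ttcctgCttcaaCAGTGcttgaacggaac
Ftl1: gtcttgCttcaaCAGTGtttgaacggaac
The stretches from *Fth1* and *Ftl1* have 26 of 29 bases in common. *Tfrc*, for transferrin receptor 1, holds 4 matches after the coding sequence, on the + strand of chr16, which are given here from the coding sequence outwards at 32631305-32631333, 32631684-32631712, 32631749-32631777 and 32631796-32631824.
Tfrc site 1: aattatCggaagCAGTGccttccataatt
Tfrc site 2: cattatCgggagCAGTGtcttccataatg
Tfrc site 3: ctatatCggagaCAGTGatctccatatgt
Tfrc site 4: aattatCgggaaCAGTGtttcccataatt
The 4 matches of *Tfrc* have 18 to 25 of 29 bases in common with each other and 9 to 13 with those of *Fth1* and *Ftl1*. All these counts include the bases in capitals, which the rule requires. The second match of *Tfrc* needs a G-U pair, and the others pair by Watson-Crick rules alone. Such a match lies in the 5' untranslated region of 33 of 19456 genes (0.17%) and in the 3' untranslated region of 125 of 19905 genes (0.628%). The hairpin is one of iron control and the set was chosen as iron genes, so matches in it were to be foreseen. Their number beside these shares is therefore not a test. A match is a description of these letters, and no binding was measured.

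**Figure D1:**
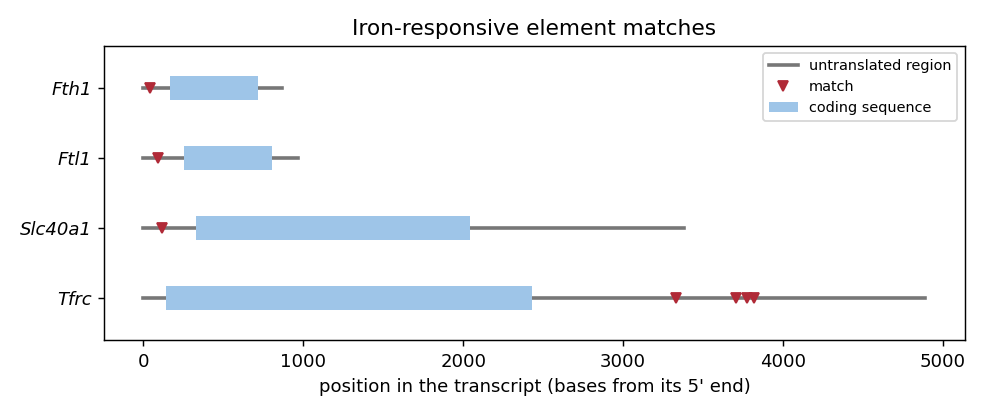
Positions of the matches along 4 transcripts, in bases from the 5' end, with coding sequence as bars, untranslated regions as lines and matches as triangles. The matches of Fth1, Ftl1 and Slc40a1 lie before the coding sequence and the 4 matches of Tfrc after it, at bases 3321 to 3828 of 4890.

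Among the other genes of iron metabolism looked at, *Slc40a1*, which encodes ferroportin, holds 1 match before the coding sequence, at chr1:45982310-45982338 on the - strand of mm9.
Slc40a1: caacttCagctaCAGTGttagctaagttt

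The values used here are mean normalized counts, that is counts divided by a size factor for each library, with 1 mean per gene and table. The table of shRNA 1 averages control and shRNA 1 libraries, and that of shRNA 2 averages control and shRNA 2 libraries. The libraries have no values of their own here, so the depth of a library is unknown, and no mean carries an error, a replicate spread or a test. The fold changes and p-values of the tables are the authors' own comparisons and are not used. The table of shRNA 1 listed 13424 genes with means that sum to 6144608, and that of shRNA 2 listed 13478 genes with a sum of 6393456. *Srrm2* itself had means of 3428 and 3759 in these tables, which do not show its depletion because each includes the control. Of 10 hepatocyte markers, 10 were listed in both tables, with summed means of 25770 and 24567. Most of the sum came from *Krt18* and *Krt8*, keratins that biliary cells share, with means of up to 9848 and 8292, while *Apoa1* and the urea cycle enzyme *Cps1* reached 39.4 and 26.2 at most. Of these 10 markers 3 were past a scaled ratio of 1.2 between the tables, *Alb* at 1.25 and *Cps1* at 1.38, both higher in the shRNA 1 table, and *Serpina1a* at 0.782, and their part in the results was not tested. Of 4 cholangiocyte markers 3 were listed in both tables, *Krt19*, *Krt7* and *Sox9*, with summed means of 4871 and 5120, and their part was not tested either. Macrophage markers were low (3 of 5 in both tables, summed means 56.6 and 62.6), as were those of stellate cells or fibroblasts (2 of 5, 11.9 and 9.66). Of 4 endothelial markers 0 were listed, and of 5 red cell markers 1 was, in the table of shRNA 1 at 3.47.

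Ferritin was the most abundant product of the set per length. *Fth1* (ENSMUSG00000024661.6, chr19:10057193-10059582, + strand of mm9, as are all gene positions given here) had a mean of 8134 normalized counts in the shRNA 1 table and of 7691 in the shRNA 2 table, and *Ftl1* (ENSMUSG00000050708.8, chr7:52713314-52715254, - strand) 7311 and 7884. Per kilobase of exon, which allows genes to be compared, *Fth1* stood at 9392 and 8881, ranks 7 and 8 among the 12628 and 12691 protein-coding genes listed. *Ftl1* stood at 5456 and 5884 per kilobase, ranks 13 and 14. The heavy chain was thus 1.72 and 1.51 times the light chain per kilobase. With the length of the longest transcript in place of all exons, this fell to 1.24 and 1.09 times. Reads of *Ftl1* are uncertain, since 74.6% of the 50-base words of its longest coding transcript also occur in *Gm10116*, and pairs that map to both would have been dropped. For *Fth1* this share was 0.0%. Only annotated coding transcripts were searched, so copies elsewhere in the genome are not counted in either share.

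*Cp*, for ceruloplasmin, the copper enzyme of plasma that oxidizes iron as it leaves cells, came next. Its means were 9493 and 8453 normalized counts, or 992 and 884 per kilobase, above 98.4% and 98.1% of protein-coding genes. The gene is ENSMUSG00000003617.10 at chr3:19857054-19909145 on the + strand. *Fth1*, *Ftl1* and *Cp* were the 3 of the 10 genes in the highest 10% of levels in either table. *Cp* overlaps *Hps3* on the opposite strand, and whether reads were counted by strand is not given in the sources used here.

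The iron regulatory proteins followed. *Ireb2*, for IRP2, which is itself degraded when iron is plentiful, had means of 942 and 907, or 162 and 156 per kilobase. *Aco1*, for IRP1, which is an aconitase when it holds an iron-sulfur cluster, had 772 and 938, or 149 and 181 per kilobase. *Ireb2* was therefore above *Aco1* in the table of shRNA 1 and below it in that of shRNA 2, and with the longest transcript as the length it was below in both. *Ireb2* is ENSMUSG00000032293.7 at chr9:54711562-54760341 and *Aco1* ENSMUSG00000028405.8 at chr4:40090114-40146042, both on the + strand.

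The receptors *Tfrc* and *Tfr2* lay between the median and the upper quartile of the listed protein-coding genes per kilobase of exon. *Tfrc*, the receptor that carries transferrin into cells, had means of 551 and 561, or 89.1 and 90.7 per kilobase, at percentiles 68.4 and 67.8. *Tfr2*, a liver receptor that senses transferrin iron, had 191 and 171, or 65.4 and 58.4 per kilobase. *Tfrc* was the higher of the pair in both tables, by 1.36 and 1.55 times per kilobase. *Hfe*, which joins these receptors in the control of hepcidin and is mutated in hemochromatosis, was low, with means of 34.8 and 33.1, or 9.74 and 9.28 per kilobase, at percentiles 19.8 and 19.0. *Steap4*, a reductase of iron and copper at the membrane, had a mean of 5.19 in the table of shRNA 1, or 1.65 per kilobase, at percentile 5.89. The receptors are ENSMUSG00000022797.9 at chr16:32609006-32632880 for *Tfrc* and ENSMUSG00000029716.8 at chr5:138011079-138028709 for *Tfr2*, both on the + strand. *Hfe* is ENSMUSG00000006611.8 at chr13:23793903-23802723 on the - strand and *Steap4* ENSMUSG00000012428.8 at chr5:7960472-7982213 on the + strand.

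*Hamp* was the member with the least even values. The gene is ENSMUSG00000050440.7 at chr7:31727390-31729036 on the - strand. Its mean was 4.01 normalized counts in the table of shRNA 1 and 16.8 in that of shRNA 2, or 10.2 and 42.9 per kilobase. It thus stood beside *Hfe* in the first table (percentile 20.3) and below *Tfr2* in the second (percentile 46.4). *Fth1* exceeded *Hamp* 918 times per kilobase in the first table and 207 times in the second. *Hamp* shares 17.5% of its 50-base words with *Hamp2*, its neighbouring copy, which is counted among the genes of hepcidin control and has no mean in either table. Because no spread is known, which neighbours in this order of levels differ beyond their error cannot be said.

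**Figure D2:**
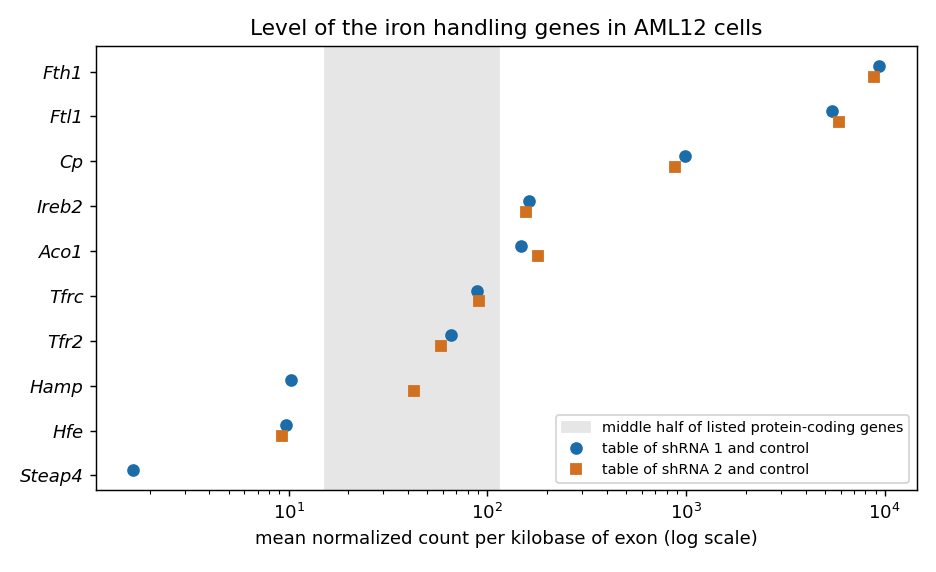
Mean normalized count per kilobase of exon (log axis) of the 10 genes in the table of shRNA 1 and control (circles) and of shRNA 2 and control (squares), without error bars since no value per library is used, and the range between the quartiles of listed protein-coding genes in grey. Fth1, Ftl1 and Cp lie far above that range, Hfe and Steap4 below it, and Hamp has the widest gap between tables, 10.2 against 42.9.

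To ask whether the hairpins differed in their effect on iron genes, the means of the tables were set against each other. The mean in the shRNA 1 table was divided by that in the shRNA 2 table, and the ratio was scaled to a median of 1 (a factor of 0.951) over the 11451 genes that reached 10 in each table. Since control libraries are part of both means, the ratio does not give the change against the control. If the same 3 controls weigh equally in both tables, the ratio of the hairpins themselves is at least as far from 1, and the difference between the hairpins is 2 times that of the scaled means. The labels name both tables for 1 of the 3 control libraries and the table of shRNA 1 for all 3, so this condition is not fixed by the labels.

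Of the 8 members compared, 0 were past a ratio of 1.2 in either direction, against 13.0% of all genes compared. The nearest were *Cp* at 1.18 and *Tfr2* at 1.18, both higher in the table of shRNA 1, and *Aco1*, whose table mean was 1.16-fold lower there. For *Cp* this is a difference of 3056 normalized counts between the means of shRNA 1 and shRNA 2, under the condition above. For *Aco1* it is 253 in favour of shRNA 2. Among genes of similar mean (within a factor of 2), 10.8% of 102 had a ratio at least as far from 1 as *Cp*, 12.7% of 4297 as *Tfr2* and 11.2% of 2777 as *Aco1*.

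Of the ferritin chains, *Ftl1* lay near the median with a ratio of 0.975, and *Fth1* was at 1.11, above the upper quartile of 1.07 over all genes compared, while *Ireb2* was at 1.09, *Hfe* at 1.104 and *Tfrc* at 1.03. A ratio past 1.1 was found for 5 of the 8 members, *Fth1*, *Cp*, *Tfr2*, *Hfe* and *Aco1*, against 36.0% of all genes. The direction of *Tfrc* turned without scaling, to 0.982, and those of the other 8 genes in both tables held under each scaling tried.

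*Hamp* differed most between the tables. With no minimum mean, its ratio was 0.251, that is 3.99-fold lower in the table of shRNA 1, while 18.5% of the 13259 genes in both tables were past 1.2 and 0.928% past 2. Of those genes, 6 had a ratio as low as that of *Hamp* or lower, *Hamp* included. Among 1638 genes of similar mean, 5 were as far from 1 in either direction, again with *Hamp*. The means allow a bound as well. No group mean is below 0, so on the scale of the second table the control mean of *Hamp* was at most 8.44 normalized counts and that of shRNA 2 at least 25.2. Under the same condition on the controls, *Hamp* was at least 3.99-fold higher with shRNA 2 than with shRNA 1 and at least 2.99-fold higher than in control cells. Where shRNA 1 stood against the control is not bounded by the means. These are few counts without a spread, and whether 1 library carried them was not tested.

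**Figure D3:**
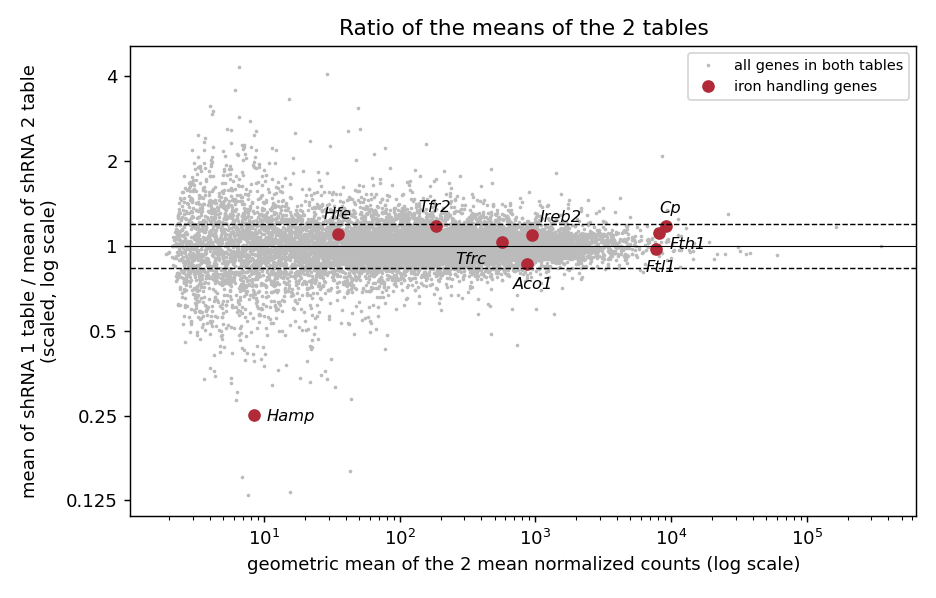
Ratio of the mean in the shRNA 1 table to that in the shRNA 2 table, scaled to a median of 1 (log axis), against the geometric mean of both means (log axis), for all genes in both tables (grey) and 9 iron handling genes (red), with dashed lines at a ratio of 1.2 in either direction. Hamp lies at 0.251 among genes of low mean, and the other 8 lie between the dashed lines.

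**Figure D4:**
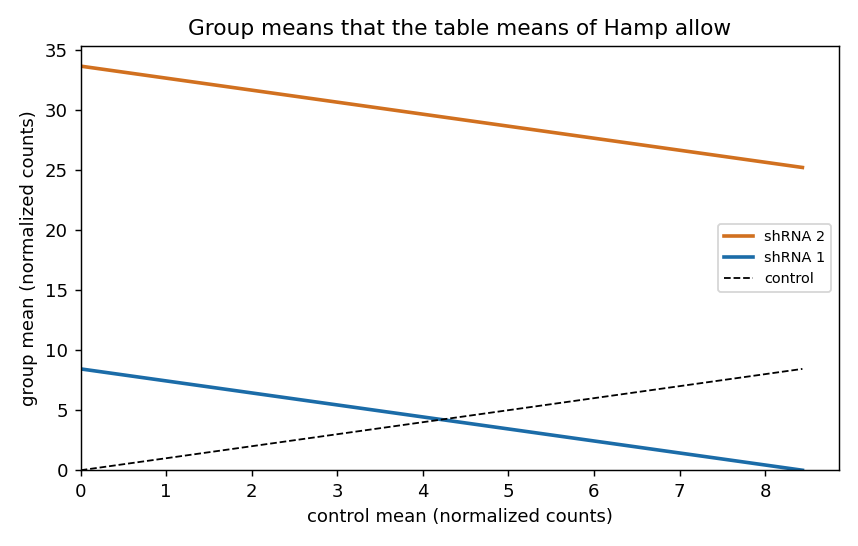
Group means of Hamp, in normalized counts on the scale of the second table, that its 2 table means allow for each possible control mean (x axis), if both tables hold the same controls. Over the whole range, up to a control mean of 8.44, the line of shRNA 2 stays at or above 25.2, while the line of shRNA 1 crosses that of the control.

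Because the means of *Hamp* differed, the letters before its start are shown. The promoter table from RefSeq (GRCm38.p6) had windows for 10 of the 10 genes, from 250 bases before to 50 after the start. The motif GGCGCC, which occurs in the BMP-responsive element of hepcidin genes, and TTCNNNGAA, the core bound by STAT factors, were searched, and both read the same on either strand. *Hamp* was the 1 member with both in a window, and 0.645% of 32851 windows held both, 11.9% the first and 8.3% the second. The 111 bases from 154 to 44 before its start, on the - strand at chr7:30944073-30944183 of GRCm38.p6, hold them in capitals.
Hamp: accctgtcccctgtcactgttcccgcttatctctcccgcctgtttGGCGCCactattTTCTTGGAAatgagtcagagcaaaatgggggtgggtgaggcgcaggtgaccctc
The first lies 109 to 104 and the second 97 to 89 bases before the start. *Tfrc* had a window with the first motif and *Steap4* one with the second. These matches are descriptions and no binding was measured. The first motif is known from hepcidin genes, and both motifs stand for signals to which *Hamp* responds, as said above. A match of either motif in *Hamp*, or of both, was therefore to be foreseen, and the shares of windows do not test it. Whether either motif has a part in the difference between the tables was not tested.

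To place the members in their pathway, 76 genes of iron metabolism were grouped by role, 66 of them outside the set. Of the 76, 64 were listed in both tables and 60 were compared. A ratio above 1.2 was found for 4 of these, against 6.82% of all genes, and a ratio past it in the other direction for 0, against 6.18%. Without scaling this split was 3 higher and 3 lower, the latter being *Lrp1*, *Aco1* and *Smad6*. The median ratio of the 60 was 1.02.

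The 4 genes were 6.67% of the 60 compared, near the 6.82% of all genes with a ratio above 1.2. They were all in the list of iron uptake and reduction, of which 10 of 14 genes were compared. The lists were chosen with earlier results of these data known, so this place in 1 list is a description. *Lcn2*, for lipocalin 2, a secreted protein that binds iron-loaded siderophores and rises in the acute phase, had means of 11805 and 5930 and a ratio of 2.09. *Steap1*, *Steap2* and *Steap3*, relatives of *Steap4*, had ratios of 1.65, 1.31 and 1.21, from means of 143 and 91.2, 1081 and 869, and 109 and 95.0. All were higher in the table of shRNA 1, and *Steap3*, the ferrireductase of the transferrin cycle, was no longer past 1.2 with scaling by sums or with none. *Slc39a14*, which imports iron not bound to transferrin, had 128 and 116 per kilobase and a ratio of 1.16, and *Trf*, for transferrin itself, 118 and 127 per kilobase and a ratio of 0.979.

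Among the genes compared, the other lists held none past 1.2 with the main scaling. In storage and chaperones 5 of 7 genes were compared, with ratios from 0.975 to 1.11, led in level by *Fth1* and *Ftl1*. In export and oxidation *Cp* was accompanied by *Slc40a1*, with means of 743 and 749 and a ratio of 1.04. *Fbxl5*, which marks IRP2 for degradation, had 1686 and 1668 and a ratio of 1.06.
Of 21 genes of hepcidin control 14 were compared, with ratios from 0.845 to 1.196 and a median of 0.968. *Bmpr2*, a BMP receptor, stood at 336 and 338 per kilobase with a ratio of 1.04, and *Id1*, a BMP target, at 288 and 337 with a ratio of 0.898. *Stat3*, named after its values were seen because its motif is in the sequence above, had a ratio of 1.005. *Smad6*, the lowest of this list, and *Il6ra*, the highest, were named on the same terms, with means of 56.0 and 69.6 and of 145 and 127.
In the heme list 16 of 17 genes were compared, with ratios from 0.982 to 1.17, and *Hpx* and *Hp*, the plasma scavengers of heme and hemoglobin, were the highest, at 846 and 876 and at 755 and 676 per kilobase. All 10 genes of mitochondrial iron and iron-sulfur clusters were compared, with ratios from 0.943 to 1.08. *Iscu*, the scaffold on which clusters are built, stood at 159 and 165 per kilobase.

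**Figure D5:**
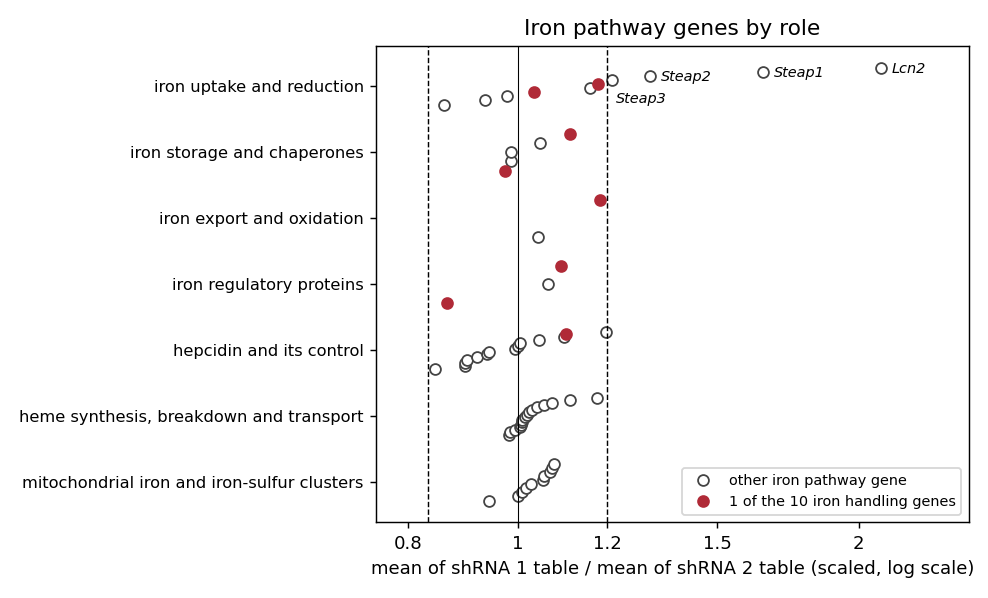
Scaled ratio of the mean in the shRNA 1 table to that in the shRNA 2 table (log axis) for the 60 iron pathway genes compared, by role, with the members among them in red and dashed lines at a ratio of 1.2 in either direction. Lcn2, Steap1, Steap2 and Steap3 lie past 1.2, at 2.09 to 1.21, and the other genes lie between the lines, while without scaling 3 lie above and 3 below.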

How the data were processed

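Libraries were polyA-enriched and strand-specific. The authors aligned trimmed reads with TopHat2 (mm9), discarded pairs without a unique place, obtained counts per GENCODE M1 gene from HTSeq and normalized them with DESeq2 version 1.8.2. The deposited signal is the authors' mean normalized count per gene over the libraries of a comparison, 1 value per gene in each of 2 tables. The other 5 columns of each table hold the authors' own comparison (log2 fold change, its standard error, a statistic, p-value and adjusted p-value), and these were not used. What decided which genes were listed is not given in the sources used here, nor is strand use in counting. Libraries were grouped by title. The descriptions of 2 control libraries name tables of further hairpins.

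Means were divided by exon length from GENCODE M1 (NCBIM37, the assembly of mm9, which matched all identifiers) and ranked among protein-coding genes. The means of the 2 tables were compared as a ratio scaled to its median, with a threshold of 1.2 and a minimum mean of 10. The scaling was tested on simulated data in which both tables held the same controls. Under that condition the bound on the ratio of the hairpins holds by arithmetic, so the simulation could not test it. The bounds given for *Hamp* were not simulated. No test was made, since no value per library is used. Iron-responsive elements were searched in GENCODE M1 coding transcripts and their places checked against the genome. Shared reads were gauged by exact 50-base words of annotated coding transcripts, and the rest of the genome was not searched. The members and lists were chosen with earlier results of these data known. Named are the 10 genes and, from each list, the 2 highest per kilobase in either table and those past 1.2, except 1 gene that is not reported here. Python 3.11.15, numpy 2.4.6, pandas 2.3.3 and matplotlib 3.10.9 were used.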

Additional observations from a re-analysis of the deposited data

How the results depend on the processing

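At a ratio of 1.2 with a minimum mean of 10, 0 members were past the threshold. A ratio of 1.1 gave 5, no minimum gave 1 (*Hamp*) and no scaling gave 1 (*Aco1*), while a ratio of 1.5, a minimum of 100 and the other scalings gave 0. Of the 60 iron pathway genes compared 4 were past it, against 13.0% of all genes. This became 18 of 60 at a ratio of 1.1, against 36.0% of all genes, and 8 of 64 with no minimum, against 18.5%. It was 2 of 60 at 1.5 and 2 of 49 at a minimum of 100, where no share over all genes is given. For the iron pathway genes, scaling by sums gave 3 and the median of genes with a mean of at least 100 gave 4. No scaling gave 6, of which 3 were higher and 3 lower in the shRNA 1 table. These scalings were added for this list after the data were seen. Without a minimum, the genes added were *Hamp*, *Slc39a8*, *Scara5* and *Fam132b*, named after their values were seen. The ratio of *Hamp* ranged from 0.239 to 0.251 over the scalings. In each of the tables, 3 members stayed in the highest 10% with the longest transcript as length and among all listed genes, and no percentile moved by more than 5.46. Members with the letters of an iron-responsive element numbered 3, also with Watson-Crick pairs alone, and 4 with no pairing rule. With Watson-Crick pairs alone, 0.0617% of all genes had a match in the 5' and 0.0754% in the 3' untranslated region. With no pairing rule these shares were 11.8% and 35.6%, so the count of 4 does not set the members apart. No paired analysis was possible because the means hold no value per library, and for the same reason no replicate could be left out. Depth limits *Hamp*, *Hfe* and *Steap4* most, whose means were below 40 normalized counts.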

Other observations

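The letters of the iron-responsive element with Watson-Crick pairs alone lie in the 5' untranslated region of 12 genes, and 12 of these were listed in both tables. Beside *Fth1*, *Ftl1* and *Slc40a1* they include *Atrx*, *Gm10116* and *Hdac7*, named after the search. *Gm10116*, which shares most of the sequence of *Ftl1*, had a mean of 211 normalized counts in the shRNA 1 table and of 222 in the other, each over control and hairpin libraries together, far below those of *Ftl1*. *Hdac7*, a histone deacetylase, had 1074 and 1181, and *Atrx*, a chromatin remodeler, 1691 and 1878. In the 3' untranslated region 15 genes hold such letters, of which 14 were listed in both tables. Of the genes with such letters in the 5' untranslated region, 11 were compared and 0 were past a ratio of 1.2. In the 3' group a ratio past 1.2 was found for 3 of the 14, against 13.0% of all genes compared. These 3 are named after their values were seen. *Cxcl16*, a chemokine, had means of 309 and 427 and a ratio of 0.763. *Tnip3*, an inhibitor of NF-kB signalling, had means of 18.4 and 33.3 and a scaled ratio of 0.581, and *Glyat*, a glycine conjugation enzyme, 63.0 and 47.8 and a ratio of 1.39. *Tgfa*, also named after its values were seen, for transforming growth factor alpha, had 1280 and 1339 and a ratio of 1.005. Whether any of these mRNAs is bound by an iron regulatory protein was not measured.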
